A study of Gallus gallus with 24 samples.

Results

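The claudins described here are CLDN1, CLDN2, CLDN3, CLDN5, CLDN12 and CLDN20, measured in primary cultures of retinal pigment epithelium (RPE) from chick embryos. Every probe set of the chicken genome array whose only annotated symbol is one of these 6 was taken as a member. This gave 9 probe sets of the 38439 used, or 6 of the 13009 genes that have a probe set with 1 symbol, and all 6 symbols were found in the RefSeq gene table. The array holds 15 further probe sets for 9 other claudins. RPE was isolated from White Leghorn embryos on embryonic day 7 (E7) or day 14 (E14) and grown on filters until the cultures were quiescent. Each age was kept in 4 media. SF3, a serum-free medium, or rcSF3, which is SF3 conditioned by neural retinas of E14 embryos, bathed the apical side, and each was used with or without serum in the basal chamber. All 8 groups shared a basal medium with bovine pituitary extract, so SF3 is a base condition that is not free of added factors. By the study's methods the 3 arrays of a group were biologic repeats, each a pool of filters plated on one day. The medium of 1 group per age was read by elimination. Its label code, CM-SER-SER, names serum but not SF3, and rcSF3 with serum was the medium left without a code. CM was read as conditioned medium, and the labels do not say why serum is named again.

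Claudins are membrane proteins with 4 membrane-spanning segments that form the strands of tight junctions, the seals between neighboring epithelial cells. Which claudins a cell makes sets how tight these seals are and which ions pass between the cells. In mammalian epithelia CLDN1, CLDN3 and CLDN5 are known as sealing claudins, with CLDN1 prominent in the epidermis and CLDN5 in endothelium, whereas CLDN2 forms a paracellular channel for cations and water. CLDN12 and CLDN20 are less studied. In the RPE, tight junctions form the outer blood-retinal barrier, and their resistance to current (transepithelial resistance, TER) serves as a measure of that barrier. The study arranged the media by rising TER as SF3, SF3 with serum, rcSF3 with serum, and rcSF3.

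Signals are in arbitrary units. They are not comparable between probe sets, so the changes of each claudin were measured only against itself, and its level only against the filter. For each age, the brightest probe sets by mean log2 signal were tested, 50.4% of all at E7 and 48.2% at E14, which put the lowest mean kept at a signal of 89.5 and 104. A difference is the log2 ratio of 2 groups, with its standard error (SE) from limma, and it was called when its p, adjusted over all probe sets tested by the method of Benjamini and Hochberg, was under 0.05. Groups of 3 arrays that did not overlap were common, at 10.6% to 28.9% of all probe sets tested per comparison and direction. With 3 arrays in a group, the number of arrays limits the precision of every value. All 12 listed RPE markers lay above the filter. At E7 the sum of their signals was 175709 to 191210 in SF3, 170810 to 183761 in SF3 with serum, 178885 to 200594 in rcSF3 with serum and 218752 to 219409 in rcSF3. At E14 the same sums were 208957 to 227951, 185420 to 208027, 179827 to 207716 and 236763 to 249448. Of 10 endothelial markers 3 lay above the filter (PECAM1, EGFL7 and ERG), and CDH5, KDR, FLT1, TIE1, TEK, VWF and EMCN did not. At E7 the endothelial sum was 1499 to 1644 in SF3 and 1448 to 1489 in SF3 with serum. It was 1088 to 1318 in rcSF3 with serum and 1170 to 1331 in rcSF3. At E14 these sums were 1042 to 1564, 1133 to 1481, 1236 to 1283 and 1264 to 1471. The endothelial markers above the filter did not move together. In the same order of media, PECAM1 had means of 166, 249, 191 and 255 at E7 and 199, 318, 199.5 and 282 at E14. ERG had 792, 755, 649.7 and 652 at E7 and 801, 582, 573 and 656 at E14. EGFL7 had 337, 207, 168 and 119 at E7 and 120, 155, 148 and 136 at E14. Of 9 mesenchymal markers 6 lay above the filter, and the sum of the signals of all 9 moved with the media. At E7 it was 4274 to 6560 in SF3, 9301 to 14845 in SF3 with serum, 4376 to 6282 in rcSF3 with serum, and 1530 to 3001 in rcSF3. At E14 the same sums were 4276 to 5629, 10430 to 10546, 4581 to 10188, and 1967 to 3072. Not every marker followed the sum. With serum in SF3 at E7, mean COL1A1 went from 476 to 4973, COL1A2 from 2321 to 3774, DCN from 66.1 to 425 and PRRX1 from 77.9 to 105. COL3A1 went from 1839 to 1597 and PDGFRB from 234 to 227. With serum in SF3 at E14, COL1A1, COL1A2, COL3A1 and DCN were higher by mean, and PDGFRB and PRRX1 lower. Of 4 blood markers 3 were measured and 1 (CSF1R) lay above the filter. Their mean sum, mostly CSF1R, was lowest in SF3 at each age and higher at E14 than at E7 in each medium. The same held for the mean of CLDN1 and of CLDN5 S1. The blood sum was highest in rcSF3 at each age, while CLDN1 and CLDN5 S1 were highest in rcSF3 with serum. By mean, the RPE sum was also higher at E14 than at E7 in each medium. At E7 the blood sum was 522 to 684 in SF3, 846 to 1139 in SF3 with serum, 912 to 1260.2 in rcSF3 with serum and 1347 to 1543 in rcSF3. At E14 it was 1105 to 1486, 1810.1 to 2175, 1692 to 2293 and 2206 to 2737. The other measured blood markers, PTPRC and HBA1, lay below the filter. At E7 neither was lowest in SF3. Their means there were 26.5 and 48.1, against 5.56 for PTPRC in rcSF3 with serum and 16.8 for HBA1 in SF3 with serum. At E14 HBA1 alone was lowest in SF3, at 27.1. Of 10 neural retina markers 4 were measured and 2 lay above the filter (SNAP25 and PDE6H), with sums of 2520.2 to 4080 in E7 rcSF3, 1684 to 2826 in the other E7 groups and 783 to 2558 at E14. These sums were mostly SNAP25, and PDE6H did not follow it at E7. In SF3, SF3 with serum, rcSF3 with serum and rcSF3, mean SNAP25 at E7 was 1827, 1624, 1565 and 2925. PDE6H was 60.7, 408, 254 and 65.1 in these groups, and 44.1 to 79.5 at E14. All 4 muscle markers lay below the filter. The log2 ratio of the 3′ to the 5′ actin control probes, a sign of RNA quality, was 0.55 to 0.89 on the arrays without serum and 0.19 to 0.44 on those with serum. For the GAPDH control probes the ranges overlapped, at -0.20 to -0.03 without serum and -0.18 to 0.03 with serum. The part of these marker sums and control ratios in the claudin results was not tested. In such bulk RNA, fewer cells that express a gene and less of its RNA per cell cannot be told apart.

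Of the 9 probe sets, 6 passed the filter, and they did so at both ages. They measured 5 of the 6 genes: CLDN1, CLDN2, CLDN12 and CLDN20 with 1 probe set each, and CLDN5 with 2, called S1 and S2 here after the ends of their identifiers (S1_at and S2_at). The only CLDN3 probe set lay near the bottom of the array. Its signal was 2.94 to 35.0, with a median of 4.98, and its mean exceeded that of 3.17% of all probe sets. A second CLDN12 probe set (A1_at) had signals of 4.34 to 96.1, and a second CLDN20 probe set (A1_at) had 56.6 to 159. Around the limit, the mean of CLDN20 was inside at E7, at 169, and that of its second probe set was outside, at 78.7. No change is reported for the 3 probe sets below the filter, and whether the cells lack CLDN3 mRNA cannot be read from them. The plot of signals by medium and age shows all arrays of the other 6.

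**Figure D1:**
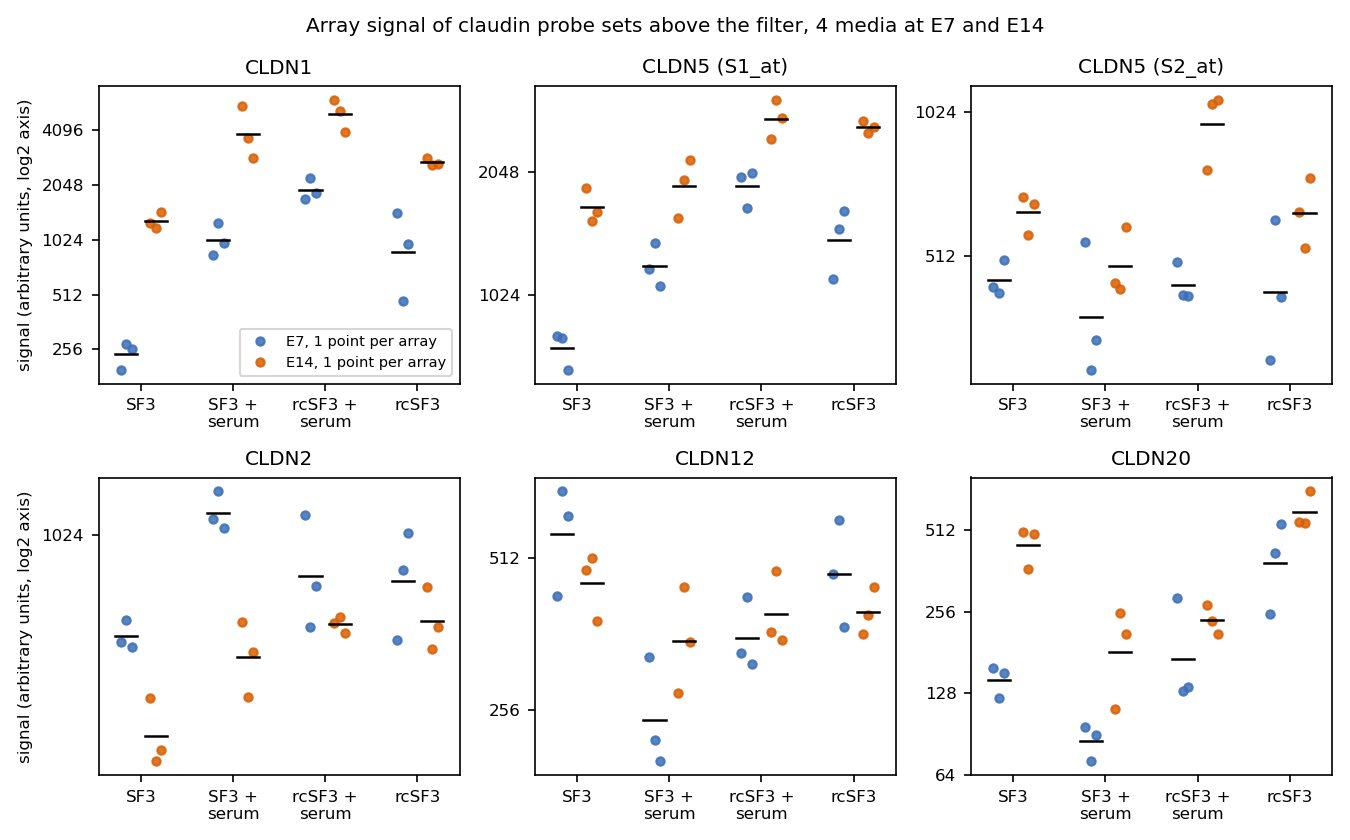
Signal of each claudin probe set above the filter (arbitrary units, log2 axis that does not start at 0) in 4 media, with 1 point per array, E7 in blue, E14 in orange and black bars at the mean of the log2 signals of 3 arrays. CLDN1 covered the widest range, from 198 to 5989, and CLDN2 the narrowest of the 6, from 545 to 1156.

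Serum in the basal chamber moved the claudins of SF3 cultures in both directions. The study used the same lot of serum for all arrays. It later found that lots differed in what they did to TER and to expression. All serum results here are therefore results for that lot. At E7, CLDN1, CLDN5 (S1 only) and CLDN2 rose and CLDN12 fell. At E14, CLDN1 rose and CLDN20 fell. Called were 4 of the 6 probe sets at E7 (3 higher, 1 lower) and 2 at E14 (1 higher, 1 lower), where 17% and 21% of all probe sets tested were called higher and lower at E7 and 12.3% and 12.5% at E14.

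CLDN1, the sealing claudin with the largest response, had signals of 198, 273 and 258 in E7 cultures in SF3 and of 842, 1260.3 and 978 with serum. In E14 cultures it had 1261, 1185 and 1459 in SF3 and 5539, 3679 and 2879 with serum. The arrays with serum lay above those without at both ages, with no overlap. The differences were 2.07 (SE 0.29, adjusted p = 7.4e-05) at E7 and 1.58 (SE 0.19, adjusted p = 4.7e-05) at E14.

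CLDN5, also a sealing claudin, had S1 signals of 816, 805 and 672 at E7 in SF3 and of 1186, 1373 and 1079 with serum, a rise of 0.66 (SE 0.14, adjusted p = 0.0019). At E14 the groups overlapped, with 1873, 1553 and 1636 in SF3 and 1584, 1962 and 2189.7 with serum, and the difference of 0.17 was not called (adjusted p = 0.31, 95% interval -0.08 to 0.42). S2 was not called at either age, at -0.26 (adjusted p = 0.41) and -0.37 (adjusted p = 0.11). Its sign was opposite to that of S1.

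CLDN2, the channel-forming member, had 760.2, 808 and 749 at E7 in SF3 and 1070.3, 1156 and 1043 with serum. The arrays with serum lay above those in SF3 with no overlap. The rise was 0.50 (SE 0.13, adjusted p = 0.0066). At E14 the arrays with serum (804, 652 and 739) lay above those in SF3 (650.2, 545 and 563) by a narrow margin, and the difference of 0.32 was not called (adjusted p = 0.055). It was called when the replicate number entered as a block (adjusted p = 0.037). Same-numbered E14 arrays did not deviate together across serum states (median r = -0.03), so that block does not rest on a known pairing. The difference was also called in 2 runs of limma with 1 array left out (adjusted p as low as 0.036).

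CLDN12 went the other way at E7, from 430.5, 697 and 622 in SF3 to 325, 223 and 202 with serum, with no overlap. It fell by 1.22 (SE 0.23, adjusted p = 0.0007). At E14 the values were 486, 512 and 384 in SF3 and 276, 449 and 349.7 with serum. These groups overlapped, and the difference of -0.38 was not called (adjusted p = 0.16).

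CLDN20 had 159, 122 and 152 at E7 in SF3 and 95.8, 71.6 and 89.3 with serum. The groups did not overlap, but the difference of -0.76 (SE 0.32) was not called (adjusted p = 0.072), and the serum values lie at about the level of the filter. In 2 runs of limma with 1 array left out that difference was called (adjusted p as low as 0.035). At E14 CLDN20 had 504, 369 and 495 in SF3 and 112, 253 and 213 with serum. It fell by 1.31 (SE 0.25, adjusted p = 0.0016), with every serum array below every SF3 array.

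In rcSF3 cultures the serum responses of CLDN1 and CLDN20 were again opposite in sign, and CLDN2 and CLDN12 were not called. Called were 3 of the 6 probe sets at E7 (CLDN1 and CLDN5 S1 higher, CLDN20 lower) and 3 at E14 (CLDN1 and CLDN5 S2 higher, CLDN20 lower), where 14.6% and 16% of all probe sets tested were called higher and lower at E7 and 11.8% and 12% at E14. CLDN1 at E7 was at 1437, 472 and 971 in rcSF3 and at 1700.3, 2223 and 1841 with serum. The array at 472 stood apart in its group, and the groups did not overlap. The rise of CLDN1 was 1.13 (SE 0.29, adjusted p = 0.0085), and without that array, replicate 2 of rcSF3, it was 0.69 (adjusted p = 0.023). At E14 CLDN1 was at 2871, 2628 and 2650.0 in rcSF3 and at 5989, 5164 and 3964 with serum, a rise of 0.87 (SE 0.19, adjusted p = 0.0038).

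CLDN20 was at 252, 422 and 542 at E7 in rcSF3 and at 289, 129.9 and 135 with serum. One array of each group crossed into the other, and the fall was 1.17 (SE 0.32, adjusted p = 0.012). Without single arrays the difference lay between -1.54 and -0.93, and the call was lost without replicate 2 or 3 of rcSF3 with serum or replicate 3 of rcSF3 (adjusted p of up to 0.061). At E14 CLDN20 was at 552, 543 and 716 in rcSF3 and at 270.3, 237 and 212 with serum, groups far apart. The fall was 1.33 (SE 0.25, adjusted p = 0.0016), close to the fall in SF3.

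CLDN5 S1 rose with serum at E7 by 0.43 (SE 0.14, adjusted p = 0.03), from 1119.8, 1491 and 1644 to 1991, 1673 and 2035, where the highest array without serum lay just under the lowest with serum. Leaving out rcSF3 replicate 1 gave 0.27 (adjusted p = 0.14), and without replicate 1 or 3 of rcSF3 with serum it was 0.40 and 0.38 (adjusted p = 0.089 and 0.103). At E14 the S1 difference was 0.07 (adjusted p = 0.72, 95% interval -0.18 to 0.32), whereas S2 rose by 0.61 (SE 0.16, adjusted p = 0.014). That S2 call was lost without replicate 2 or 3 of rcSF3 with serum or replicate 2 of rcSF3 (adjusted p of up to 0.068). CLDN2 differed by 0.02 and -0.01 (adjusted p = 0.92 and 0.95). CLDN12 differed by -0.43 and -0.02 (adjusted p = 0.17 and 0.96).

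**Figure D2:**
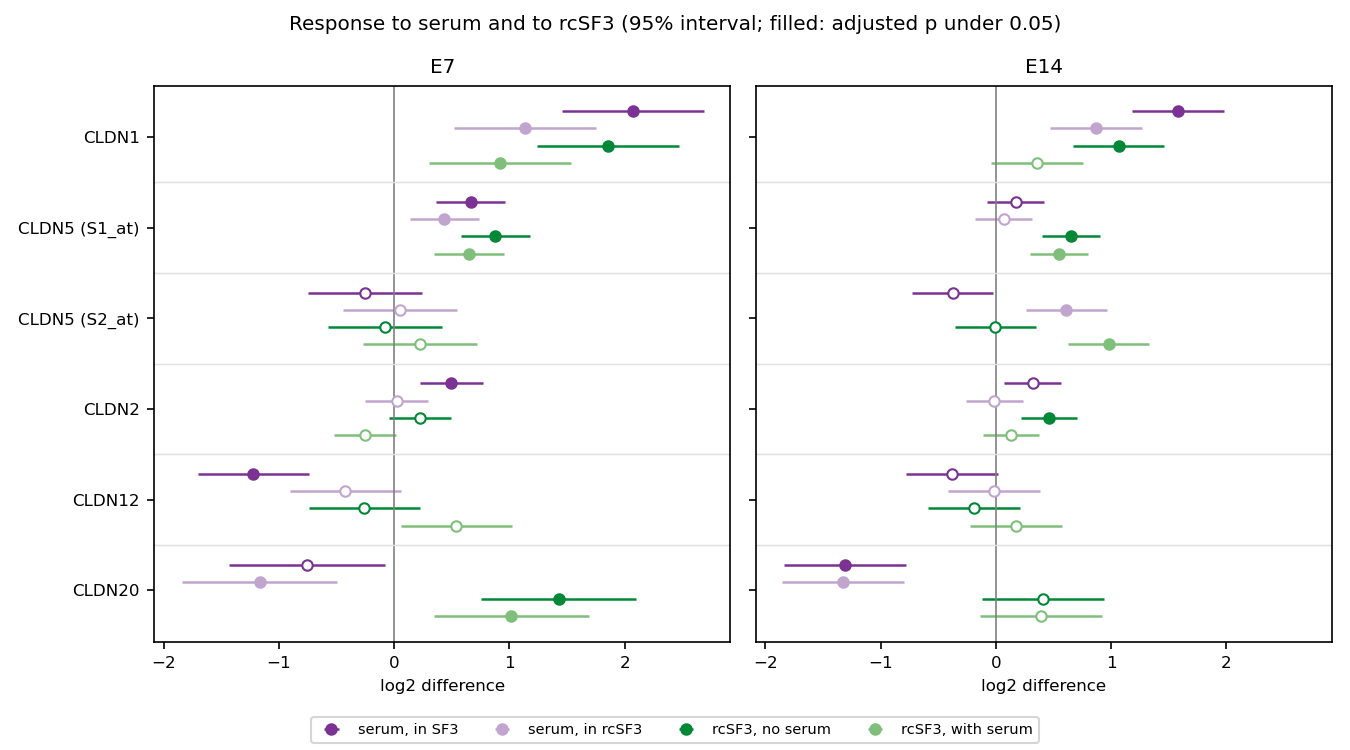
Log2 difference of each claudin probe set for serum in SF3, serum in rcSF3, rcSF3 without serum and rcSF3 with serum, at E7 (left) and E14 (right), n = 3 arrays per group. Bars are 95% intervals from limma and filled circles were called. CLDN1 lies to the right of 0 in all 8 comparisons, and the serum circles of CLDN20 lie to the left of 0 while its rcSF3 circles lie to the right.

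Conditioned medium moved the claudins in one direction where it was called at all. Without serum, CLDN1, CLDN5 S1 and CLDN20 rose at E7, and CLDN1, CLDN5 S1 and CLDN2 rose at E14. CLDN5 S2 differed by -0.083 and -0.0041 (adjusted p = 0.84 and 0.99). That is 3 of 6 probe sets higher and 0 lower at each age, where 13.1% and 13.5% of all probe sets tested were called higher and lower at E7 and 5.01% and 4.99% at E14. At E7 the rises were 1.86 (SE 0.29, adjusted p = 0.00024) for CLDN1, 0.88 (SE 0.14, adjusted p = 0.0003) for CLDN5 S1 and 1.43 (SE 0.32, adjusted p = 0.0036) for CLDN20. Without replicate 2 of rcSF3, the array with CLDN1 at 472, the rise of CLDN1 was 2.30 (adjusted p = 3.2e-06). The rcSF3 arrays of CLDN20 all lay above its SF3 arrays, with the lowest rcSF3 signal at 252 and the highest SF3 signal at 159.

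At E14 the rises were 1.07 (SE 0.19, adjusted p = 0.0023) for CLDN1 and 0.65 (SE 0.12, adjusted p = 0.0028) for CLDN5 S1. CLDN2 rose by 0.46 (SE 0.11, adjusted p = 0.019), from 650.2, 545 and 563 to 884, 745 and 791. That call was lost without SF3 replicate 2 (0.41, adjusted p = 0.08), SF3 replicate 3 (0.44, adjusted p = 0.056) or rcSF3 replicate 1 (0.39, adjusted p = 0.081). CLDN20 differed by 0.41 (adjusted p = 0.34, 95% interval -0.12 to 0.94), although its 3 rcSF3 arrays lay above its 3 SF3 arrays. CLDN5 S2 was level, at 680.1, 566 and 656 in SF3 and at 632, 532 and 744 in rcSF3.

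In the presence of serum, rcSF3 raised CLDN1, CLDN5 S1 and CLDN20 at E7 and only the CLDN5 probe sets at E14, 3 and 2 of 6 probe sets higher, where 11% and 1.17% of all probe sets tested were called higher. CLDN5 S1 rose by 0.65 (SE 0.14, adjusted p = 0.0049) at E7. At E14 its signals went from 1584, 1962 and 2189.7 to 2474, 3087 and 2781, a rise of 0.55 (SE 0.12, adjusted p = 0.023), whose adjusted p reached 0.13 without replicate 2 of rcSF3 with serum and was 0.092 and 0.071 without replicate 1 of SF3 with serum and replicate 3 of rcSF3 with serum. S2 at E14 went from 450.2, 438 and 589.9 to 775, 1064 and 1085, a rise of 0.98 (SE 0.16, adjusted p = 0.0062). Both CLDN5 probe sets thus had every array of rcSF3 with serum above every array of SF3 with serum.

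The 2 other calls with serum at E7 were near the threshold. CLDN1 rose by 0.91 (SE 0.29, adjusted p = 0.036), and without replicate 1 or 3 of SF3 with serum, or any 1 array of rcSF3 with serum, the adjusted p was between 0.063 and 0.12. CLDN20 rose by 1.02 (SE 0.32, adjusted p = 0.034), and when the array at 289 (replicate 1 of rcSF3 with serum) was left out, the difference was 0.64 (adjusted p = 0.18). Without replicate 2 or 3 of SF3 with serum its adjusted p was 0.11 and 0.072. With signals under the filter level raised to that level, the difference of CLDN20 was 0.72 (adjusted p = 0.096). At E14 CLDN1 overlapped between SF3 with serum and rcSF3 with serum and differed by 0.35 (SE 0.19, adjusted p = 0.32). Repeats of one number deviated together within a serum state, at r of 0.10 to 0.22 at E14 and 0.03 to 0.16 at E7. With those repeats blocked, a choice made after the data were seen, that CLDN1 difference at E14 was called (adjusted p = 0.029).

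Both stimuli together against SF3 called 3 of 6 probe sets at E7 and 5 at E14, where 42.1% and 29.2% of all probe sets tested were called. CLDN1 reached the highest level of its age in this medium, with 2.99 (SE 0.29, adjusted p = 1.4e-06) at E7 and 1.94 (SE 0.19, adjusted p = 5.6e-06) at E14. CLDN5 S1 rose by 1.31 (SE 0.14, adjusted p = 3.9e-06) and 0.72 (SE 0.12, adjusted p = 0.00039). CLDN12 fell at E7 by 0.69 (SE 0.23, adjusted p = 0.024), to 331, 428 and 316. Single arrays decided that call, which was lost when SF3 replicate 2 or 3, or rcSF3 with serum replicate 1 or 3, was left out, with the adjusted p between 0.071 and 0.105. CLDN20 fell at E14 by 0.92 (SE 0.25, adjusted p = 0.012), while at E7 it differed by 0.26 (adjusted p = 0.54, 95% interval -0.42 to 0.93). CLDN2 rose at E14 by 0.45 (SE 0.11, adjusted p = 0.0087), and CLDN5 S2 by 0.61 (SE 0.16, adjusted p = 0.012), a call that was lost without replicate 2 of SF3 or replicate 2 or 3 of rcSF3 with serum (adjusted p of up to 0.057).

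Whether the response to rcSF3 depended on serum was tested as an interaction. By limma, 0 of 6 probe sets were called at either age, where 2.1% and 0.653% of all probe sets tested were called. At an unadjusted p under 0.05 there were 3 at E7 and 2 at E14, where 16.7% and 12.6% of all probe sets tested passed. The nearest was CLDN5 S2 at E14, at 0.99 (SE 0.23, adjusted p = 0.078), and with repeats blocked inside each serum state it was called (adjusted p = 0.01). So was CLDN1 at E14, at -0.71 (adjusted p = 0.27 without and 0.012 with the block). At E7 CLDN1 had an interaction of -0.94 (adjusted p = 0.26), and -1.38 (adjusted p = 0.017) without rcSF3 replicate 2. CLDN2 and CLDN12 had -0.48 and 0.80 at E7 (adjusted p = 0.19 and 0.22).

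The claudins did not share one order of the media. The test for any difference among the 4 media called 5 of 6 probe sets at each age, where 60.6% and 41.6% of all probe sets tested were called. The exceptions were CLDN5 S2 at E7 (adjusted p = 0.73) and CLDN12 at E14 (adjusted p = 0.37). From low to high, CLDN1 went SF3, rcSF3, SF3 with serum, rcSF3 with serum at both ages. The difference of its middle pair, rcSF3 minus SF3 with serum, was not called by limma. It was -0.22 at E7 (adjusted p = 0.54) and -0.52 at E14 (adjusted p = 0.15). At E14 the arrays of this pair did not overlap. Without E7 rcSF3 replicate 2, the E7 mean of rcSF3 lay 2.30 above SF3 and that of SF3 with serum 2.07. The E7 order of CLDN1 was then SF3, SF3 with serum, rcSF3, rcSF3 with serum. CLDN5 S1 went SF3, SF3 with serum, rcSF3, rcSF3 with serum at both ages, so its highest mean was also with both stimuli. CLDN12 went SF3 with serum, rcSF3 with serum, rcSF3, SF3 at both ages, which is lowest with serum and highest in the base medium. CLDN20 was lowest in SF3 with serum and highest in rcSF3 at both ages, and only its middle pair changed places. At E7 SF3 lay below rcSF3 with serum, and at E14 above it. The E7 difference, 0.26, was not called by limma (adjusted p = 0.54). Without replicate 1 of rcSF3 with serum it was -0.12, and the order was then the same at both ages. CLDN2 followed the TER order at E14 and went SF3, rcSF3, rcSF3 with serum, SF3 with serum at E7. Of the 6 probe sets at 2 ages, CLDN2 at E14 was the 1 case in 12 with the means in the TER order. Its last step, serum in rcSF3, was a difference of -0.01 that was not called. Without replicate 1 of rcSF3 it was 0.056 and without replicate 3 of rcSF3 with serum 0.0059, and CLDN2 then no longer followed that order. The share of all probe sets in the TER order is not given here.

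**Figure D3:**
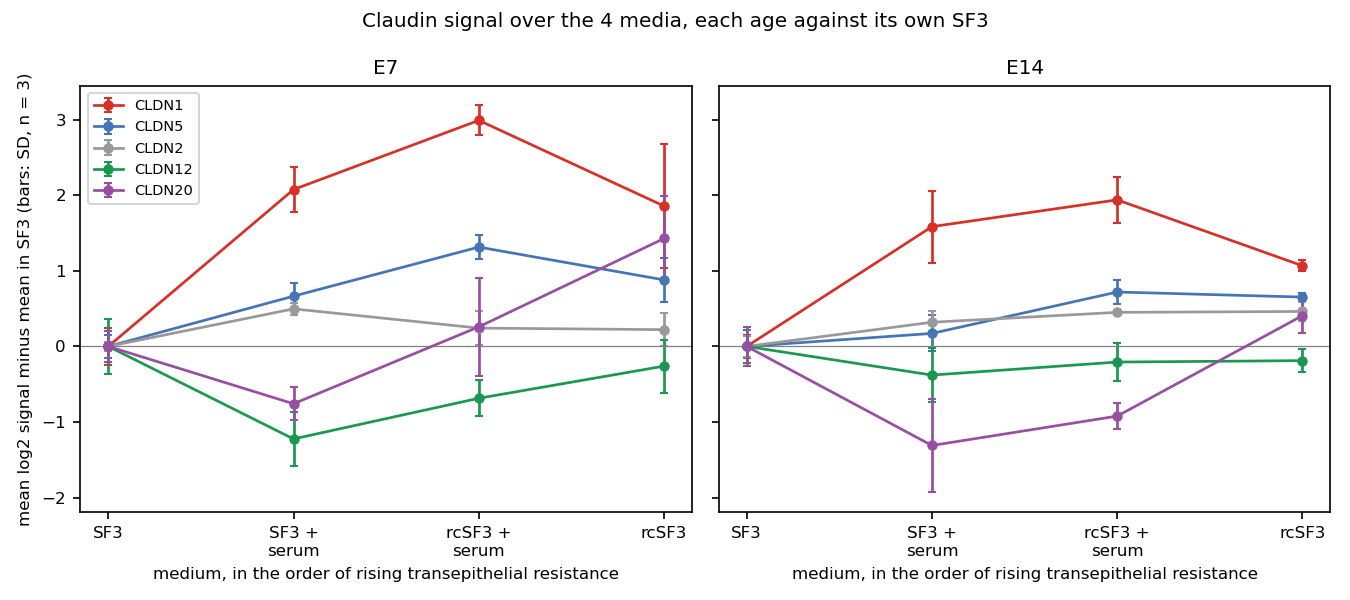
Mean log2 signal in each medium minus the mean in SF3 of the same age (y axis, log2 units) for the probe set that stands for each of 5 claudins, at E7 (left) and E14 (right), with the media on the x axis in the order of rising TER. Bars are the SD of 3 arrays, and CLDN1 peaks with both stimuli at 2.99 and 1.94 while CLDN20 reaches its low with serum at -0.76 and -1.31.

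Age was the other axis of the design, and CLDN1, CLDN5 and CLDN20 were higher in E14 cultures while CLDN2 was lower. Averaged over the 4 media, 4 of 6 probe sets were called higher and 1 lower, where 22.3% and 30.3% of all probe sets tested were. CLDN1 was higher by 1.85 (SE 0.14, adjusted p = 9.4e-11), CLDN5 S1 by 0.82 (SE 0.07, adjusted p = 9.6e-10), CLDN5 S2 by 0.62 (SE 0.11, adjusted p = 4e-05) and CLDN20 by 0.96 (SE 0.15, adjusted p = 1.1e-05). CLDN2 was lower by this mean, at -0.33 (SE 0.06, adjusted p = 6e-05). CLDN12 differed by 0.03 (adjusted p = 0.86, 95% interval -0.20 to 0.25).

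By medium, 4 of 6 probe sets were called in SF3 and 4 in SF3 with serum (3 higher and 1 lower in each), 3 in rcSF3 with serum and 2 in rcSF3 (all higher), where 35.4%, 28.5%, 18.5% and 23.1% of all probe sets tested were called. CLDN1 was higher at E14 in each medium, by 2.43 in SF3 (SE 0.27, adjusted p = 2.8e-07), 1.94 when serum was added to it, 1.38 in rcSF3 with serum and 1.64 in rcSF3. Its E14 arrays lay above its E7 arrays of the same medium without overlap in all 4. CLDN5 S1 was likewise higher in each medium, by 1.14, 0.65, 0.55 and 0.92 in the same order, with adjusted p from 8.1e-07 to 0.0064 and no overlap. S2 was called in rcSF3 with serum only, at 1.11 (SE 0.22, adjusted p = 0.00077), and differed by 0.47, 0.35 and 0.55 in SF3, SF3 with serum and rcSF3 (adjusted p = 0.094, 0.24 and 0.069). In some alternative runs of limma these S2 differences were called as well, with adjusted p as low as 0.017, 0.038 and 0.012 in the same order.

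CLDN20 was higher at E14 in SF3 by 1.65 (SE 0.30, adjusted p = 0.00017) and in SF3 with serum by 1.10 (SE 0.30, adjusted p = 0.0084). The latter was 0.86 (adjusted p = 0.061) without E14 SF3 with serum replicate 2. All 3 of its E7 arrays with serum lay under the filter level of E14, and with signals raised to that level, 104, the difference was 0.80 (adjusted p = 0.043). In rcSF3 with serum and in rcSF3 it differed by 0.47 and 0.63 (adjusted p = 0.3 and 0.14). CLDN2 was lower at E14 in SF3, at -0.40 (SE 0.12, adjusted p = 0.012; 0.050 without E14 SF3 replicate 2), and in SF3 with serum, at -0.58 (SE 0.12, adjusted p = 0.00085), where every E14 array lay under every E7 array. In rcSF3 with serum and rcSF3 the E7 and E14 arrays of CLDN2 overlapped, with -0.19 and -0.16 (adjusted p = 0.28 and 0.36). CLDN12 differed by -0.32, 0.52, 0.16 and -0.25 in the 4 media, and none was called (adjusted p = 0.27, 0.08, 0.68 and 0.45). Its difference in SF3 with serum was called by limma in 2 runs with 1 array left out (adjusted p as low as 0.025).

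**Figure D4:**
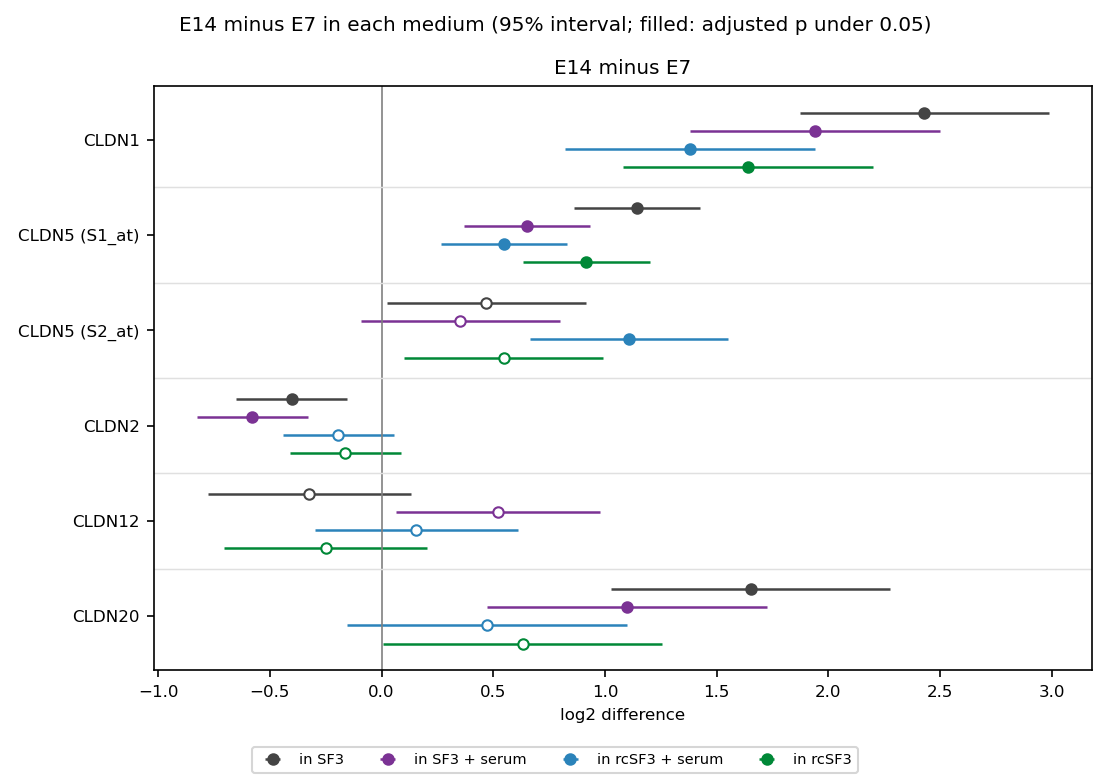
Log2 difference of E14 minus E7 for each claudin probe set in each of the 4 media, n = 3 arrays per group, with 95% intervals from limma and filled circles for called differences. All circles of CLDN1 and CLDN5 lie to the right of 0 and all of CLDN2 to the left, and those of CLDN12 lie on both sides.

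None of the 4 responses was shown to differ with age. By limma 0 of 6 probe sets were called for serum in SF3, serum in rcSF3, rcSF3 without serum or rcSF3 with serum, where 3.66%, 0.773%, 5.27% and 1.53% of all probe sets tested were called. At an unadjusted p under 0.05 there were 5 of the 24 tests, where 19.2%, 12.6%, 18.9% and 14.8% of all probe sets tested passed in the same order. So the calls for CLDN12 at E7 and not at E14, or for CLDN20 in rcSF3 at E7 and not at E14, do not separate the ages. The intervals of these differences were wide. For CLDN12 the serum response in SF3 differed by 0.84 between the ages (95% interval 0.20 to 1.49, adjusted p = 0.13), and for CLDN20 the rcSF3 response without serum differed by -1.02 (95% interval -1.91 to -0.14, adjusted p = 0.18). CLDN5 S1 differed in its serum response in SF3 by -0.49 (adjusted p = 0.16), and CLDN1 in its rcSF3 response without serum by -0.79 (adjusted p = 0.26). That last value was -1.23 (adjusted p = 0.019) without E7 rcSF3 replicate 2. In the response to rcSF3 with serum, CLDN5 S2 differed between the ages by 0.75 (adjusted p = 0.23) and CLDN2 by 0.39 (adjusted p = 0.28).

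Over all 8 groups, most steps between neighbors in the order of means were not called. For CLDN1 the order from low to high was E7 SF3, E7 rcSF3, E7 SF3 with serum, E14 SF3, E7 rcSF3 with serum, E14 rcSF3, E14 SF3 with serum, E14 rcSF3 with serum. Its means (±SD, n = 3) ran 243 ± 39.8, 960.2 ± 483, 1027 ± 213, 1302 ± 141, 1921 ± 270.3, 2716 ± 134, 4032 ± 1364 and 5039 ± 1019. Only the first step of CLDN1 was called. The arrays of some later neighbors still did not overlap, such as E14 SF3 (1185 to 1459) and E7 rcSF3 with serum (1700.3 to 2223). For CLDN5 S1 the order was E7 SF3, E7 SF3 with serum, E7 rcSF3, E14 SF3, E7 rcSF3 with serum and E14 SF3 with serum at nearly one level, E14 rcSF3, E14 rcSF3 with serum. Its means were 764 ± 80.3, 1213 ± 149, 1418 ± 269.7, 1688 ± 166, 1899.5 ± 198, 1912 ± 306, 2645 ± 91.6 and 2781 ± 306. The first step (0.66, adjusted p = 0.00054) and that from E14 SF3 with serum to E14 rcSF3 (0.48, adjusted p = 0.0096) were called.

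For CLDN2 the group means were 586 ± 56.4 in E14 SF3, 732 ± 76.2 in E14 SF3 with serum, 772 ± 31.4 in E7 SF3, 798 ± 18.0 in E14 rcSF3 with serum, 807 ± 70.9 in E14 rcSF3, 907 ± 134 in E7 rcSF3, 921 ± 147 in E7 rcSF3 with serum and 1089.9 ± 58.9 in E7 SF3 with serum. For CLDN12 they were 250.0 ± 65.9 in E7 SF3 with serum, 358 ± 87.1 in E14 SF3 with serum, 359 ± 61.0 in E7 rcSF3 with serum, 399.9 ± 72.0 in E14 rcSF3 with serum, 403 ± 43.6 in E14 rcSF3, 460.4 ± 67.9 in E14 SF3, 486 ± 118 in E7 rcSF3 and 583 ± 137 in E7 SF3. For CLDN20 they were 85.6 ± 12.5 in E7 SF3 with serum, 145 ± 19.4 in E7 SF3, 185 ± 90.3 in E7 rcSF3 with serum, 193 ± 72.7 in E14 SF3 with serum, 239.6 ± 29.4 in E14 rcSF3 with serum, 405 ± 145 in E7 rcSF3, 456 ± 76.0 in E14 SF3 and 604 ± 97.4 in E14 rcSF3. No step between neighbors was called for CLDN2, CLDN12 or CLDN20. The arrays of some neighbors still did not overlap. For CLDN20, E7 SF3 with serum (71.6 to 95.8) lay below E7 SF3 (122 to 159), with an adjusted p of 0.052 by limma over both ages. For CLDN2, E14 SF3 (545 to 650.2) lay narrowly below E14 SF3 with serum (652 to 804), with an adjusted p of 0.053 in the same model. CLDN5 S2 lay at 396 ± 134 to 458 ± 39.3 in the E7 groups, 493 ± 84.5 to 636 ± 106 in E14 SF3 with serum, SF3 and rcSF3, and 975 ± 173 in E14 rcSF3 with serum, and of its steps only the last was called (0.61, adjusted p = 0.035).

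The S1 and S2 probe sets of CLDN5 did not move in parallel. Within an array, the log2 ratio of S1 to S2 was 0.74 ± 0.28 (SD, n = 3) in E7 SF3 and 1.66 ± 0.55, 2.08 ± 0.16 and 1.70 ± 0.36 in E7 SF3 with serum, rcSF3 with serum and rcSF3. In E14 cultures it was 1.41 ± 0.08, 1.96 ± 0.18, 1.52 ± 0.16 and 2.07 ± 0.22 in the same order of media. The ratio was lowest in SF3 at both ages, and at E14 it was also low with both stimuli, the medium in which S2 reached its highest signals. S2 at E7 had 441, 429 and 503 in SF3, 548, 297 and 343 with serum, 498, 425 and 423 in rcSF3 with serum and 312, 609.8 and 421 in rcSF3, so its E7 groups all overlapped. None of the sources used here tells which part of the mRNA each probe set reads.

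**Figure D5:**
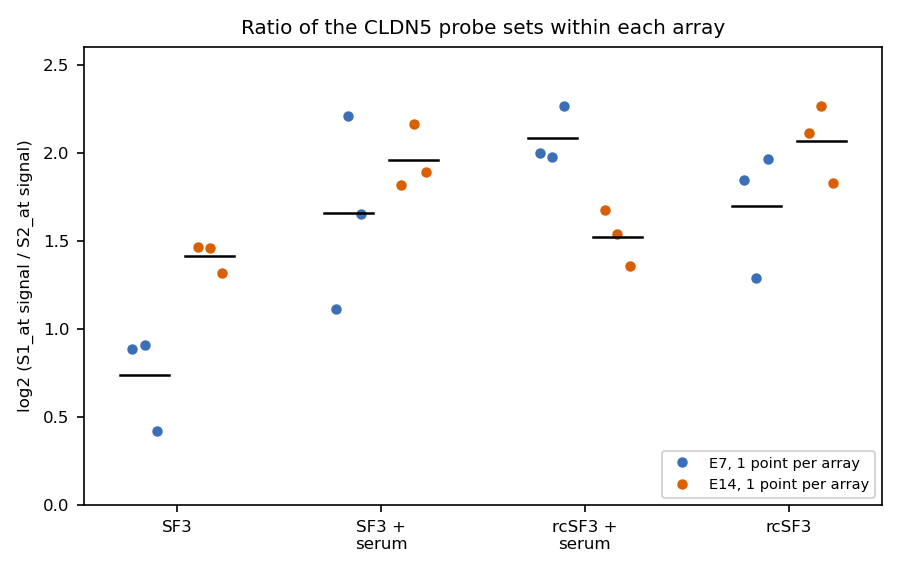
Log2 ratio of the S1_at to the S2_at signal of CLDN5 within each array (y axis, log2 units) by medium, 1 point per array, E7 in blue and E14 in orange, with black bars at the mean of 3 arrays. The E7 SF3 arrays lie lowest, with a mean of 0.74, and the highest mean, 2.08, is that of E7 rcSF3 with serum.

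The genes whose log2 signal followed each claudin most closely over the 24 arrays were found by Pearson's r, as a description that includes the shared groups. For CLDN1 they were CCPG1 (r = 0.96), ABCC4 (0.95) and IGFBP2 (0.95), and for CLDN5 S1 TMEM9B (0.95), C1orf198 (0.95) and PM20D2 (0.94). For CLDN20 they were CCNY (0.95), CCDC53 (0.93) and SNX9 (0.93). For CLDN12 they were PLXNB2 (0.89), PLEKHB2 (0.88) and LRRC8A (0.88), and for CLDN2 ALYREF (0.85), NIN (0.82) and HNRNPAB (0.81). Over deviations from the group means, r for these genes ran from 0.11 (NIN with CLDN2) and 0.25 (IGFBP2 with CLDN1) up to 0.84 (PLXNB2 with CLDN12). Among the members, CLDN1 and CLDN5 S1 had r = 0.85 over the 24 arrays and -0.48 over deviations from the group means. The 2 CLDN5 probe sets had 0.62 and 0.36.

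Other genes of the junction were called in both directions, and for serum in SF3 and for age at shares close to those of all probe sets tested. Of 53 listed symbols of junction membrane proteins, their adaptors and polarity proteins, 36 were tested at E7 and 35 at E14. With serum in SF3, 8 were called higher and 9 lower at E7, and 5 and 5 at E14 (all probe sets: 17% and 21%, then 12.3% and 12.5%). The largest called at E7 were MARVELD2 (tricellulin), which seals the corners where 3 cells meet, at -0.96, and PRKCI, a kinase of the polarity complex, at -0.85. At E14 they were the scaffold protein MAGI1, at 1.35, and MARVELD3, at 1.19. With rcSF3 without serum, 8 were called higher and 4 lower at E7, and 2 and 3 at E14 (all probe sets: 13.1% and 13.5%, then 5.01% and 4.99%). Between the ages, over the mean of the media, 10 of 36 were higher and 11 lower at E14 (all probe sets: 22.3% and 30.3%), led by CGNL1 (paracingulin), at -0.89, and AMOTL2, at -0.63. The medians of the listed genes in these comparisons lay between -0.07 and 0.05, and those of all probe sets tested between -0.05 and 0.03. Of the other claudins, 3 were tested at E7 and between the ages and 2 at E14, and none was called.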

How the data were processed

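RNA of 8 groups was hybridized to 24 chicken genome arrays of 1 color. The authors deposited intensities, 1 value per probe set, that GeneChip Operating Software had produced and scaled to one global level, and the sources used here name neither its version nor the background step. With 2% of signals trimmed at each end, the mean was 497 to 498 on all arrays, and the array medians were 89.3 to 121. The 96 control probe sets were left out and detection calls were not used. Deposited intensities were put on the log2 scale, so a ratio of groups is a log2 difference computed here, with no further normalization. The filter took the brightest probe sets of an age by mean log2 signal, as many as the study counts as expressed. Symbols came from the platform annotation, which gives 27168 probe sets 1 symbol. All member probe sets are described. For likeness the 3 genes with the highest r are named, and of the junction list only the largest changes. Members and lists were chosen with earlier results of these data known.

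Tests were run in limma 3.58.1 under R 4.3.3, using a mean-variance trend, moderated variances and Benjamini-Hochberg adjustment over all probe sets kept. Media were compared over the 12 arrays of 1 age, and ages over all 24. An exact permutation test of 3 against 3 arrays cannot go below a two-sided p of 0.1, so none was used. Steps between neighbors in the order of groups were taken from the model of 24 arrays. The fit of 1 comparison, serum in SF3 at E7, was tested on simulated data. Labels number the repeats from 1 to 3, and no source says what a number shares between media. Deviations of same-numbered arrays of the same serum state correlated at 0.10 to 0.22 at E14 and 0.03 to 0.16 at E7, and those across serum states at -0.09 to 0.09. The number was therefore used as a block within each serum state, an alternative chosen after the data were seen, for differences within a serum state. Figures were drawn with matplotlib 3.10.9 in Python 3.11.15.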

Additional observations from a re-analysis of the deposited data

How the results depend on the processing

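The alternatives were quantile normalization, no filter, low signals raised to the filter level, no mean-variance trend, the unmoderated one-way analysis of variance of the methods, other samples in the fit, the replicate number as a block, and leaving out each array. Of 49 called differences of claudin probe sets, 35 kept the call in every alternative run and 14 lost it in at least 1, and none changed sign. The analysis of variance lost 10 of them, and leaving out an array lost 11. Quantile normalization lost 0, and it moved 0 of 48 group levels by 1 SD or more. Apart from left-out arrays, the rises of CLDN1 and CLDN20 with rcSF3 beside serum at E7 were each lost in 4 of 8 alternatives. CLDN5 S1 lost its rise with serum in rcSF3 at E7 in 3 of 7, and with rcSF3 beside serum at E14 in 2 of 8. Lost in 1 each were serum in rcSF3 at E7 (CLDN1, CLDN20) and E14 (CLDN5 S2), rcSF3 beside serum at E14 (CLDN5 S2), and both stimuli (CLDN12 at E7, CLDN20 at E14). Serum differences called numbered 12 (8 to 13 in the alternatives) and age differences 13 (12 to 16). For rcSF3, 11 were called, and 7 by the analysis of variance. No interaction of serum and rcSF3 was called, but with the replicate block 1 was, with the replicate block within each serum state 2 were, and without single replicates 0 to 1. Interactions of age with a medium numbered 0, and 0 to 1 without single replicates.

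Some differences that were not called changed sign without single replicates. Serum in rcSF3 ranged from -0.10 to 0.12 at E7 and from -0.067 to 0.056 at E14 for CLDN2, and at E14 from -0.011 to 0.15 for CLDN5 S1 and from -0.16 to 0.065 for CLDN12. For rcSF3 without serum at E14, CLDN5 S2 ranged from -0.12 to 0.12. For both stimuli against SF3 at E7, CLDN20 ranged from -0.12 to 0.46. For age over the media, CLDN12 ranged from -0.025 to 0.078. The cause was not tested. With the replicate block, the rise of CLDN1 with rcSF3 beside serum at E7 was not called (adjusted p = 0.053). Beyond that and the changes given with the results, the block changed no other call reported. A block nested in age could not be fitted for differences between the ages. CLDN20 at E7 lay at about the filter level in SF3 with serum, where small changes are poorly measured.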
